A study of Mus musculus with 12 samples.

Results

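The EGF receptor family was followed through 10 genes in mouse hair follicle stem cells: the ligand genes Areg (amphiregulin), Ereg (epiregulin), Epgn (epigen), Btc (betacellulin), Tgfa (transforming growth factor alpha) and Hbegf (heparin-binding EGF-like growth factor), the receptor genes Egfr, Erbb2 and Erbb3, and Errfi1, which encodes an intracellular inhibitor of the receptors. They were chosen by name, and all 10 were found among the 37931 gene names shared by the 2 count tables of the study. RNA was sequenced from stem cells sorted from dissociated back skin, in mice with and without the transcription factor gene Foxc1, in anagen (the growth phase of the hair cycle) and in early telogen (the start of the rest phase). All mice carried K14-H2BGFP, a green fluorescent histone under the keratin 14 promoter, and floxed Foxc1 alleles (Foxc1 fl/fl). Knockout (KO) mice also carried K14Cre, a recombinase under the same promoter, and the control mice, labelled WT, did not. That promoter is active in basal keratinocytes of the epidermis and the follicle, so the deletion was not restricted to the sorted cells. The sort kept cells positive for H2BGFP, CD34 and CD49f and negative for Sca-1.

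Anagen had 2 KO libraries, at postnatal days 29 and 31, and 3 WT libraries, titled days 29, 30 and 31, of which the last (WT replicate 3) had an age label of 43 days. Early telogen had 4 libraries of KO cells, numbered 1, 2, 3 and 5, and 3 of WT cells, numbered 1, 3 and 4, all with an age label of 47 days, although KO replicate 5 was titled day 43. By sex label, the anagen KO libraries were both female, while 2 of the anagen WT libraries were male and 1 female. In early telogen, KO replicate 2 and WT replicate 4 were labelled male and all other libraries female. The labels do not say that libraries came from separate animals, so p-values measure the spread between these samples.

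The ligands are made as membrane-bound precursors that ADAM proteases cut free. Released ligand pairs receptors on the cell surface and starts the RAS-ERK and PI3K cascades, and Errfi1, itself a target gene of ERK signalling, binds the active receptor and damps it. In skin, EGF receptor signalling is known for its part in keratinocyte proliferation, wound repair and the timing of the hair cycle.

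Totals over genes were 29025553 to 54482469 counts in anagen and 2662083 (KO replicate 5) to 11821916 in early telogen, and levels are given as CPM, counts per 1000000 of that total. Foxc1 was at 0.241 ± 0.0494 CPM in anagen KO (SD, n = 2) and 65.9 ± 43.8 in WT (n = 3), and at 1.86 ± 1.03 in early telogen KO (n = 4) and 54.7 ± 9.48 in WT (n = 3). KO and WT libraries did not overlap for Foxc1 at either stage, with an edgeR adjusted p of 0.0522 in anagen and 8.63e-06 in early telogen. Summed over 10 bulge stem cell markers, libraries held 21842 to 36126 CPM. The sums were 21.4 to 282 CPM for immune markers and 4.64 to 41.7 CPM for endothelial markers, and 254 to 4986 CPM for fibroblast markers, with early telogen KO replicate 2 at the top. In early telogen, WT replicate 3 had the lowest sum of endothelial, fibroblast and mitosis markers and the highest sum of genes known to rise during tissue dissociation. In bulk RNA, fewer cells of a type and less RNA per cell cannot be told apart. Each stage had its own count table, so stage and table cannot be told apart either.

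Of the 6 ligand genes, 4 lie side by side on chromosome 5 (GRCm38 with GENCODE M21). In order along the chromosome they are Epgn (chr5:91027464-91035215), Ereg (chr5:91074622-91093646) and Areg (chr5:91139599-91148432) on the plus strand, and Btc (chr5:91357261-91402994) on the minus strand. The gaps between neighbours were 39.4 kb, 46.0 kb and 209 kb. The other members lie apart from them: Tgfa on chromosome 6, Hbegf on 18, Egfr and Erbb2 on 11, Erbb3 on 10 and Errfi1 on 4.

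Promoters were found for 7 of the 10 members in RefSeq sequences of build GRCm38.p6, each running from 250 bases before to 50 bases after a transcription start. The promoters of Areg and Epgn are shown because both genes were lower in early telogen than in anagen, that of Tgfa because it was higher, and that of Errfi1 because it shares motifs with Areg. Capitals mark matches on either strand. A match to TATAAA stands for the TATA box, and one to TGACGTCA for the cyclic AMP response element. The forkhead core was searched as TAAACA. For the factor AP-1 the letters were TGACTCA. No match overlapped that of another motif, and TGACGTCA is its own reverse complement.
Areg, chr5:91139349-91139648, plus strand: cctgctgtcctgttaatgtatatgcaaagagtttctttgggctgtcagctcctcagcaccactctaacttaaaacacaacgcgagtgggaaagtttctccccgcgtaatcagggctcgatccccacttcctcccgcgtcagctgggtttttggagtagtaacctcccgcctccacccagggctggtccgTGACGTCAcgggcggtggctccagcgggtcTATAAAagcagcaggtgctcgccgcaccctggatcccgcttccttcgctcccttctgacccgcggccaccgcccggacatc
Epgn, chr5:91027267-91027566, plus strand: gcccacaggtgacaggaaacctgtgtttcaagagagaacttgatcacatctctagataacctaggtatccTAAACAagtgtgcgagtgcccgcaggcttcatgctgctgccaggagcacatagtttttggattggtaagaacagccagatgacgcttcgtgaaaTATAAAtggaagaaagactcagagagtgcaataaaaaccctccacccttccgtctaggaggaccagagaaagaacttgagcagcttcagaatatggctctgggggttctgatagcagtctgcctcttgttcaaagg
Tgfa, chr6:86194972-86195271, plus strand: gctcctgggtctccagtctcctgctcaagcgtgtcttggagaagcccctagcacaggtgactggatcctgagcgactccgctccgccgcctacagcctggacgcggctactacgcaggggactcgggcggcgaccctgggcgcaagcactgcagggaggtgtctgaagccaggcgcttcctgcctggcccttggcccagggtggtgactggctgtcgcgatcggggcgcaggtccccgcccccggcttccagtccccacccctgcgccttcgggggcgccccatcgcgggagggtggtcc
Errfi1, chr4:150854820-150855119, plus strand: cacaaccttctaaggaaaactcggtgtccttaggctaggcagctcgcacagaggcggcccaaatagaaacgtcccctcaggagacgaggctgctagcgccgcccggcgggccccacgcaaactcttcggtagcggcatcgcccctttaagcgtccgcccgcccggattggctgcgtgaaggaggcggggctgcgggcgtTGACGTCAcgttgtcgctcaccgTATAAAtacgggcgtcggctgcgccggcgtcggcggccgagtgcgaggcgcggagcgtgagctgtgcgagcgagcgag

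The Areg promoter held TGACGTCA with its first base at -61 and TATAAA at -31, counted from the start. Errfi1 is listed with 2 starts, and the promoter of the downstream one held the same pair, at -51 and -28. TGACGTCA was present in 1.79% and TATAAA in 13.6% of 32851 promoters of this length. The Epgn promoter held TATAAA at -86 and TAAACA at -180, and TAAACA was present in 13.4% of promoters. The RefSeq start of Epgn lies downstream of the GENCODE gene start given above, so both matches lie nearer to the latter. TGACTCA, present in 5.2% of promoters, was in none of the member promoters searched, and the Tgfa, Btc, Egfr and Erbb2 windows held none of the 4 motifs. These matches describe letters in a window and were not tested as binding sites.

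Read per kb of exonic sequence, so that genes can be compared with each other, Errfi1, Epgn and Hbegf were the highest members in WT anagen. Errfi1 stood at 210.0 ± 56.6 CPM per kb, Epgn at 146 ± 83.8 and Hbegf at 134 ± 9.60 (SD, n = 3), and the libraries of Errfi1 overlapped those of Epgn, and those of Epgn overlapped those of Hbegf. Areg (27.0 CPM per kb) and Egfr (25.2) followed and overlapped, then Erbb3 (12.45) and Erbb2 (11.6), then Tgfa (2.80) and Ereg (1.88), with Btc lowest at 0.343. In WT early telogen the order of levels was Errfi1 (330.0 CPM per kb), Hbegf (130), Egfr (34.6), Epgn (18.9), Erbb2 (13.7), Erbb3 (12.3), Tgfa (5.48), Ereg (5.44), Areg (2.09) and Btc (0.584). Errfi1, Hbegf and Egfr each stood clear of the gene below them there, while Epgn, Erbb2, Tgfa, Ereg and Areg each overlapped the next. Epgn thus stood at the second place in WT anagen and the fourth in WT early telogen, and Areg at the fourth and the ninth.

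**Figure D1:**
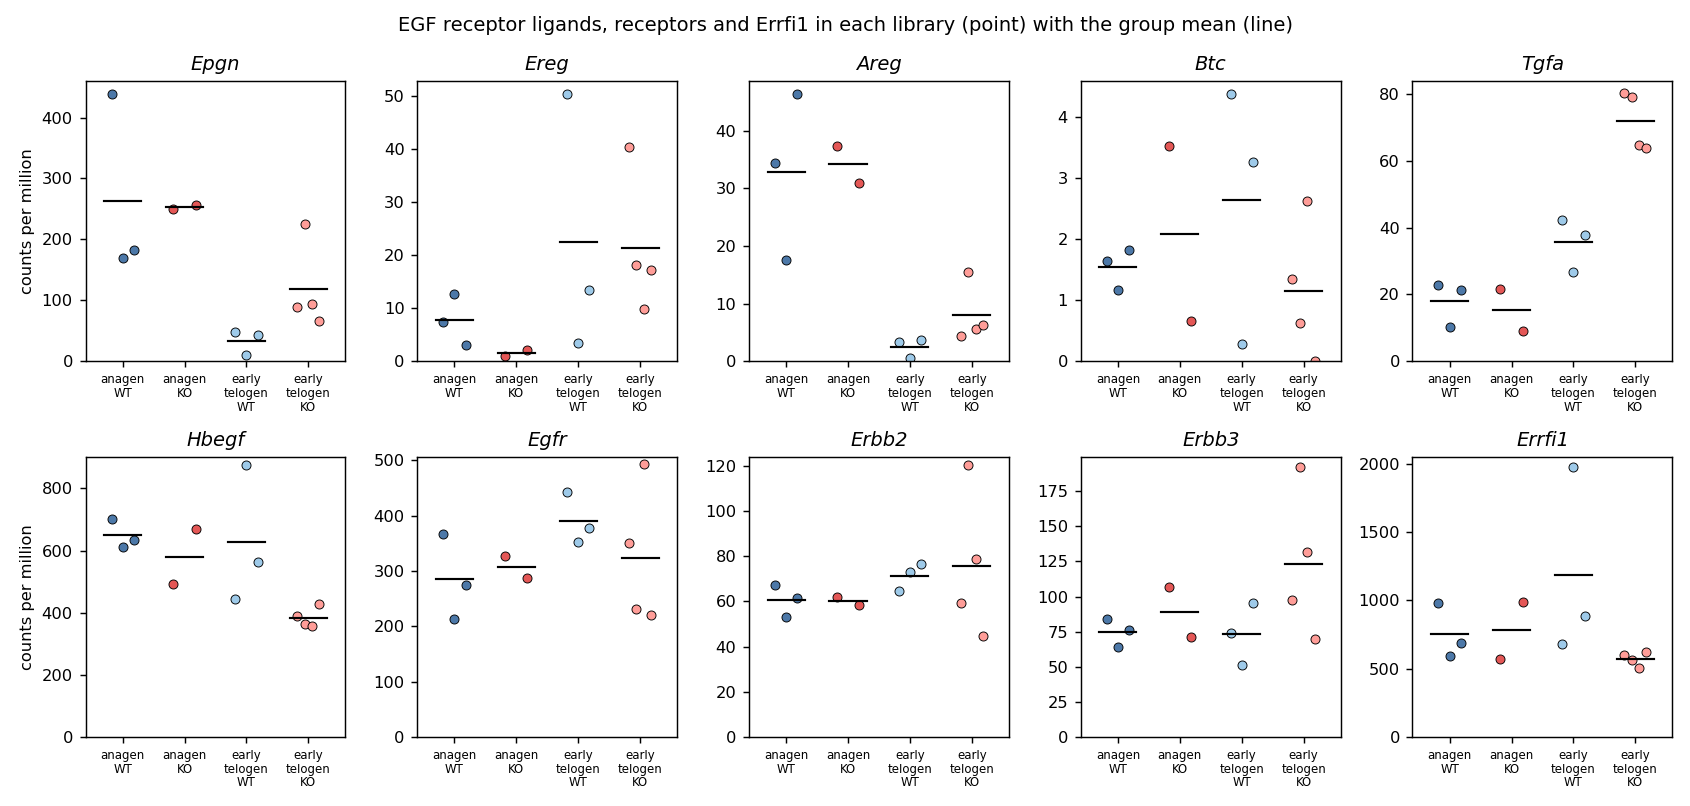
CPM (y axis, linear from 0) of each member in each library (points), with the group mean as a line, for anagen WT and KO and early telogen WT and KO. Areg and Epgn sit lower and Tgfa higher in early telogen, and in early telogen the Tgfa libraries of KO (63.9 to 80.3) lie above those of WT (26.7 to 42.4).

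The first question was how the members differed between the phases of the hair cycle. In WT cells, Areg and Epgn fell from anagen to early telogen and Tgfa rose, which makes 3 of 10 members called at an edgeR adjusted p under 0.05, against 29.5% of the 12718 genes tested. In KO cells Areg and Epgn fell and Tgfa and Ereg rose, 4 of 10 members, against 22.2% of 12771 genes. Libraries of the stages did not overlap for 3 members in WT (47.9% of genes tested) and for 5 in KO (44.9%). In WT the share of members called was near that of all genes, and in KO 4 members are too few to read a difference from. Other measures moved with stage. Of 11 epidermal differentiation and infundibulum genes, 5 rose and 1 fell in KO (median log2 fold change 1.79) and 1 rose in WT (0.59). Their summed CPM was 1879 to 4215 in anagen and 5139 to 8084 in early telogen. Of 14 mitosis genes, 8 fell in KO and 6 in WT, with none higher. Fibroblast markers had a median of 0.835 in WT (2 of 9 higher by call) and 1.42 in KO (1 of 7). Endothelial markers had a median of 0.58 in WT (none called) and 1.67 in KO (2 of 6 higher by call). Melanocyte markers had a median of -3.29 in WT (3 lower and 1 higher by call) and -0.18 in KO (1 higher). The part of such cells in the stage differences was not tested. The median log2 fold change of the members was 0.44 in WT, beside -0.10 over all genes tested, and -0.17 in KO, beside -0.03.

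Epgn encodes a broad ligand of EGFR. Its anagen libraries read 438, 170.0 and 182 CPM in WT (replicates 1, 2 and 3) and 249.5 and 256 CPM in KO. In early telogen they read 48.5, 10.3 and 43.7 CPM in WT (replicates 1, 3 and 4) and 89.7, 225, 93.6 and 66.1 CPM in KO (replicates 1, 2, 3 and 5). Every early telogen library lay below every anagen library of its genotype. Epgn fell by 2.89 ± 0.68 on the log2 scale in WT (adjusted p = 0.0261 in edgeR) and by 1.14 ± 0.36 in KO (adjusted p = 0.0426 in edgeR). Both calls were fragile. In WT the call was lost without anagen replicate 1 (adjusted p = 0.0572 in edgeR) or early telogen replicate 4 (0.0632), and without the filter on low counts (0.0811). In KO it was kept in 1 of 6 fits that left out a library, with edgeR adjusted p-values from 0.0012 to 0.154.

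Areg encodes amphiregulin, a ligand of EGFR induced in growing and wounded epidermis. Its anagen libraries read 34.3, 17.7 and 46.3 CPM in WT and 37.4 and 30.9 CPM in KO. Its early telogen libraries read 3.30, 0.556 and 3.75 CPM in WT and 4.48, 15.5, 5.66 and 6.39 CPM in KO. The stages did not overlap in either genotype, and in KO the nearest library was early telogen replicate 2. Areg fell by 3.66 ± 0.63 on the log2 scale in WT (adjusted p = 0.00708 in edgeR) and by 2.13 ± 0.39 in KO (adjusted p = 0.00382 in edgeR). Both calls held under all 10 alternatives run on each, the largest adjusted p being 0.0372 in WT and 0.018 in KO.

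Ereg lies between Epgn and Areg and encodes epiregulin, which also acts through ERBB4. It read 7.43, 12.7 and 3.13 CPM in anagen WT and 0.977 and 2.07 CPM in anagen KO. In early telogen it read 50.4, 3.43 and 13.5 CPM in WT and 40.5, 18.1, 9.80 and 17.3 CPM in KO. The stages overlapped in WT and did not in KO. Ereg rose by 3.81 ± 0.61 on the log2 scale in KO (adjusted p = 0.00205 in edgeR), a call that held under all 10 alternatives. In WT the log2 fold change was 1.57 ± 1.01 (adjusted p = 0.302 in edgeR). Early telogen WT replicate 1 was the highest of its group, and without it the value was 0.20. In KO, then, Ereg was called in the opposite direction to the neighbours on both its sides.

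**Figure D2:**
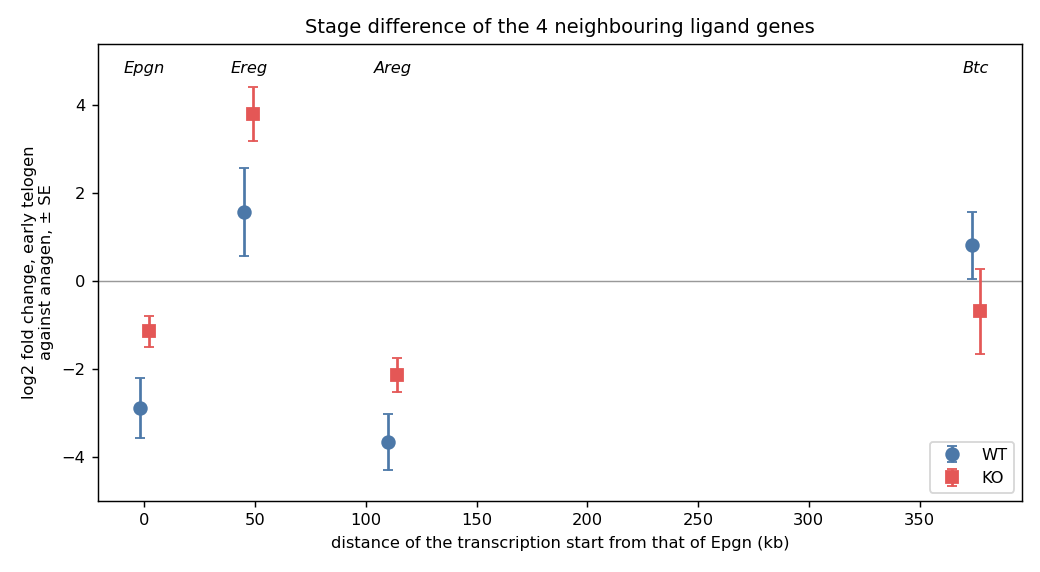
Log2 fold change of early telogen against anagen (y axis, ± SE) for the 4 ligand genes on chromosome 5, by the distance of each transcription start from that of Epgn in kb (x axis), in WT (circles) and KO (squares). Epgn and Areg lie below 0 in both genotypes and Ereg lies above 0, by 3.81 in KO and by 1.57 in WT (0.20 without early telogen WT replicate 1).

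Btc, the fourth gene of the cluster, encodes betacellulin. It was the lowest member, at 1.17 to 1.82 CPM in anagen WT, 0.655 and 3.52 in anagen KO, 0.278 to 4.37 in early telogen WT and 0 to 2.63 in early telogen KO. The 0 was in KO replicate 5, the shallowest library, where 3 counts would be 1.13 CPM. Btc was called in no comparison, and its log2 fold change was 0.81 ± 0.76 for stage in WT and -0.69 ± 0.96 in KO.

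Tgfa encodes the ligand first known from transformed cells and made by keratinocytes themselves. It read 22.9, 10.4 and 21.2 CPM in anagen WT and 21.6 and 9.06 CPM in anagen KO. In early telogen it read 42.4, 26.7 and 37.7 CPM in WT and 80.3, 79.2, 64.6 and 63.9 CPM in KO. Early telogen libraries lay above anagen libraries in both genotypes. Tgfa rose by 1.05 ± 0.29 on the log2 scale in WT (adjusted p = 0.0249 in edgeR) and by 2.22 ± 0.34 in KO (adjusted p = 0.00141 in edgeR). The KO call held under all 10 alternatives, while the WT call was lost without early telogen replicate 1 (adjusted p = 0.0740 in edgeR) or replicate 4 (0.0804).

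Hbegf, a ligand that also binds heparan sulfate, was the most abundant ligand by CPM. It read 701, 613 and 634 CPM in anagen WT and 492 and 670 CPM in anagen KO. In early telogen it read 445, 876 and 563 CPM in WT and 389, 365, 357 and 427 CPM in KO. The stages overlapped in WT, where the log2 fold change was 0.06 ± 0.27, and not in KO, where it was -0.59 ± 0.25 (adjusted p = 0.109 in edgeR).

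No receptor was called between the phases in edgeR. Egfr, the receptor that binds all 6 ligands, averaged 285 ± 77.7 CPM in anagen WT and 391 ± 46.8 in early telogen WT (SD, n = 3 each), and 307 ± 27.3 (n = 2) and 324 ± 127 (n = 4) in KO. Its log2 fold change was 0.54 ± 0.21 in WT (adjusted p = 0.0727 in edgeR) and 0.11 ± 0.38 in KO. In WT, Egfr was called by DESeq2 (0.58, adjusted p = 0.0375), which called 4 members there, and by edgeR without anagen replicate 1 (0.78, adjusted p = 0.0204). Its adjusted p-values over 10 alternatives ran from 0.0204 to 0.202. Erbb2, the partner receptor that binds no ligand of its own, was at 60.6 ± 7.07 and 71.4 ± 6.21 CPM in WT and at 60.1 ± 2.28 and 75.7 ± 32.8 CPM in KO. Erbb3, which binds neuregulins and has little kinase activity, was at 74.9 ± 10.2 and 73.7 ± 21.9 CPM in WT and at 88.9 ± 24.9 and 123 ± 52.8 CPM in KO. Over the 12 libraries the SD of log2 CPM was 0.34 to 0.46 for the 3 receptors, 0.49 for Hbegf and 0.62 for Errfi1, beside 1.05 to 1.79 for Tgfa, Epgn, Btc, Ereg and Areg. Early telogen KO replicate 2 was the highest library for Erbb2 (120.2 CPM) and Erbb3 (192 CPM), as it was for Areg and Epgn within its group and for the fibroblast marker sum. The part of those cells in these values was not tested. The same library was the only early telogen KO library labelled male.

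Errfi1 read 979, 589 and 688 CPM in anagen WT and 570.0 and 991 CPM in anagen KO. The groups overlapped between stages in both genotypes, and the log2 fold change was 0.77 ± 0.44 in WT (adjusted p = 0.231 in edgeR) and -0.45 ± 0.28 in KO (adjusted p = 0.263 in edgeR). Single libraries carried much of both values: 0.10 was left in WT without early telogen replicate 3 and -0.04 in KO without anagen replicate 2.

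**Figure D3:**
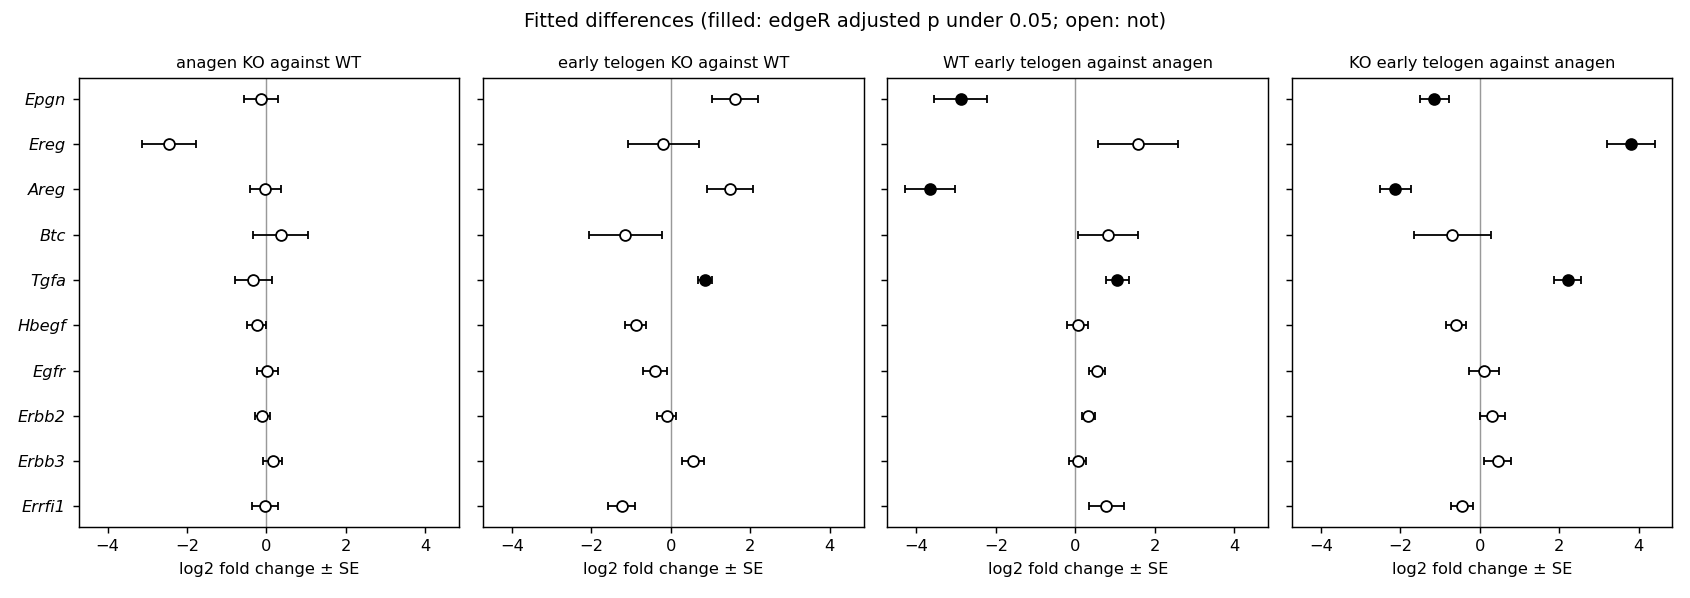
Log2 fold change ± SE (x axis) of each member (rows) for KO against WT in anagen and in early telogen and for early telogen against anagen in WT and in KO. Filled points passed an edgeR adjusted p of 0.05: none in anagen, Tgfa in early telogen, 3 members for stage in WT and 4 in KO.

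The second question was what loss of Foxc1 changed within a phase. In anagen no member was called, and 0% of the 14409 genes tested were. Foxc1 itself, with a log2 fold change of -8.19, was not called there (adjusted p = 0.0522 in edgeR). The lack of a call in anagen thus does not show the lack of a difference. At an unadjusted p under 0.05 there were 1456 genes, and DESeq2 called 499. The members' median log2 fold change was -0.07, beside 0.02 over all genes. Ereg alone among the members had no overlap between KO and WT, where 29.7% of genes had none. Its KO libraries (0.977 and 2.07 CPM) lay below its WT libraries (3.13 to 12.7 CPM), with a log2 fold change of -2.45 ± 0.68 (adjusted p = 0.297 in edgeR). DESeq2 called it (adjusted p = 0.00356), and adjusted p-values over its 11 alternatives ran from 0.00356 to 1. The other 9 members had log2 fold changes from -0.33 (Tgfa) to 0.36 (Btc), with adjusted p-values of 0.772 or more. Epidermal differentiation and infundibulum genes summed to 1879 and 2298 CPM in anagen KO and 3195 to 4215 in WT. Their median was -0.86, with 8 negative and 3 positive. Mitosis genes were positive in 15 of 15 (median 1.16) with sums that overlapped, and melanocyte markers negative in 7 of 7 (median -1.36). The part of such cells in the members' anagen values was not tested.

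In early telogen Tgfa was higher in KO and no other member was called in the main edgeR fit, 1 of 10 beside 0.956% of 12030 genes tested. Libraries did not overlap for 5 members, 3 higher in KO (Tgfa, Areg and Epgn) and 2 lower (Errfi1 and Hbegf), where 13.1% of genes did not overlap. Tgfa rose from 35.6 ± 8.06 CPM in WT (SD, n = 3) to 72.0 ± 8.96 in KO (n = 4), by 0.85 ± 0.18 on the log2 scale (adjusted p = 0.0471 in edgeR). The call was close to the threshold. It was lost with RLE normalization (adjusted p = 0.0508 in edgeR), in the fit of all 12 libraries (0.246), and in 6 of 7 fits that left out a library, the largest being 0.302 without WT replicate 3, while DESeq2 gave 0.00893. In all 14 alternatives the log2 fold change lay between 0.71 and 0.99. The KO effect on Tgfa was 1.16 ± 0.46 larger in early telogen than in anagen on the log2 scale, a difference that was not called (adjusted p = 0.632 in edgeR).

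Areg and Epgn also lay higher in KO, without overlap and without a call. Areg averaged 7.997 ± 5.04 CPM in KO and 2.54 ± 1.73 in WT, a log2 fold change of 1.49 ± 0.58 (adjusted p = 0.311 in edgeR). Epgn averaged 119 ± 71.8 CPM in KO and 34.2 ± 20.8 in WT, a log2 fold change of 1.61 ± 0.58 (adjusted p = 0.323 in edgeR). KO replicate 2 was the highest and WT replicate 3 the lowest library for both genes. Without these 2 libraries, a choice made after seeing the data, the log2 fold change was 0.57 for Areg and 0.80 for Epgn.

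Errfi1 and Hbegf lay lower in KO, without overlap and without a call in the main edgeR fit. Errfi1 read 603, 562, 506 and 621 CPM in KO and 683, 1977 and 886 CPM in WT. The WT library at 1977 was replicate 3, which was also the highest for Hbegf. The log2 fold change was -1.24 ± 0.34 for Errfi1 (adjusted p = 0.135 in edgeR) and -0.89 ± 0.26 for Hbegf (adjusted p = 0.139 in edgeR). DESeq2 called both, at adjusted p-values of 0.00446 and 0.0215. Without the filter on low counts edgeR also called both (adjusted p = 0.0318 for Errfi1 and 0.0212 for Hbegf). Without WT replicate 1 edgeR called Errfi1 (adjusted p = 0.0495) and not Hbegf (0.0806). Without WT replicate 3 the values were -0.59 for Errfi1 (adjusted p = 0.634 in edgeR) and -0.52 for Hbegf (adjusted p = 0.723 in edgeR). Over all 14 alternatives the adjusted p-values ran from 0.00446 to 0.716 for Errfi1 and from 0.0212 to 0.723 for Hbegf.

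Several other measures moved with these differences. Summed CPM of the 14 mitosis genes in the early telogen table was 141 to 181 in KO and 16.0 to 35.4 in WT, and 6 of the 14 rose in KO. Immune markers had positive log2 fold changes in 9 of 9 tested (median 1.001), none called, and summed to 75.1 to 282 CPM in KO and 21.4 to 125 in WT. Melanocyte markers had a median of 2.18, with 1 of 5 higher by call, and sums of 72.4 to 107 CPM in KO and 81.7 to 136 in WT. Bulge stem cell markers had a median of -0.23, with 1 of 10 lower by call. Endothelial markers summed to 30.4 to 41.7 CPM in KO and 4.64 to 28.05 in WT, with 6 of 6 positive. Schwann cell markers summed to 75.9 to 99.55 CPM in KO and 51.7 to 64.3 in WT, with 2 of 2 positive. Inner bulge and companion layer markers were negative in 7 of 7 (median -0.30). Epidermal differentiation and infundibulum genes had a median of 0.66, with 7 positive and 4 negative. Summed CPM of the 22 dissociation genes, a list of immediate early and heat shock genes known to rise when tissue is digested, was 52946 in WT replicate 3, 34911 and 42433 in the other two WT libraries and 29418 to 39106 in KO. In early telogen KO against WT, 18 of those 22 genes had negative log2 fold changes and 4 positive (median -0.39), and none was called. In anagen WT, the highest Errfi1 (979 CPM) and Hbegf (701) were in replicate 1, which had the lowest dissociation sum (28465). In anagen KO, Errfi1 (991 CPM) and Hbegf (670) were higher in replicate 2, which had the higher dissociation sum (53123 against 19642). The part of dividing cells, other cell types or dissociation in the members' values was not tested.

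**Figure D4:**
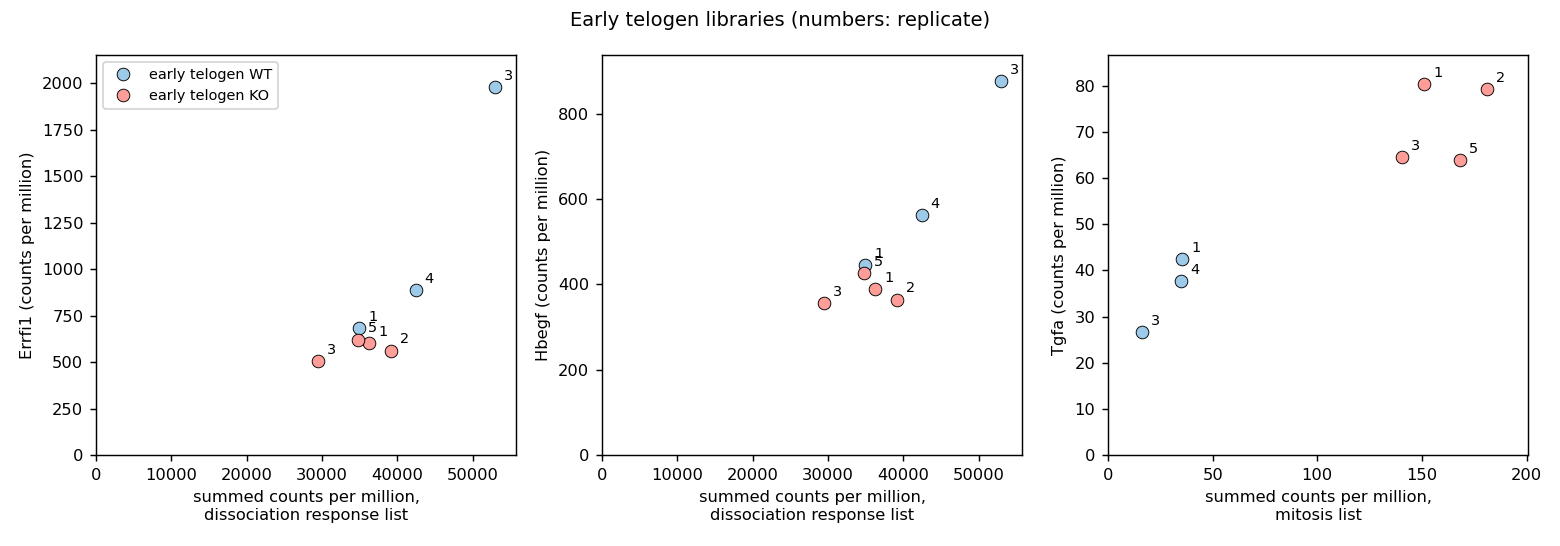
Each early telogen library (points, numbered by replicate, WT blue and KO red) by summed CPM of a gene list (x axis) and CPM of Errfi1, Hbegf or Tgfa (y axis). WT replicate 3 has the highest dissociation sum (52946) with the highest Errfi1 (1977) and Hbegf (876), and the KO libraries have higher mitosis sums (141 to 181) and higher Tgfa than the WT libraries.

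The receptors showed no called difference in early telogen. Erbb3 was at 97.7, 192, 132 and 69.9 CPM in KO and 74.4, 51.4 and 95.3 CPM in WT, which overlapped, with a log2 fold change of 0.56 ± 0.28 (adjusted p = 0.473 in edgeR). Egfr had a log2 fold change of -0.41 ± 0.30 (adjusted p = 0.650 in edgeR) and Erbb2 of -0.11 ± 0.25 (adjusted p = 0.912 in edgeR). Ereg (-0.19 ± 0.89) and Btc (-1.15 ± 0.92) had KO and WT libraries that overlapped. The members' median was -0.15, beside 0.03 over all genes tested.

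No member was called for a difference of the KO effect between the phases, where 0.144% of 13193 genes were. At an unadjusted p under 0.05 there were 841 genes, Tgfa and Errfi1 among them. The differences on the log2 scale were 2.24 ± 1.24 for Ereg (adjusted p = 0.849 in edgeR), 1.74 ± 0.80 for Epgn (0.783), 1.53 ± 0.78 for Areg (0.814) and -1.24 ± 0.54 for Errfi1 (0.717). DESeq2 called no member. Without the filter on low counts edgeR called 4: Areg, Ereg, Epgn and Errfi1.

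Genes further along the pathway were counted in lists. In edgeR, no gene of any pathway list was called between KO and WT in anagen, in early telogen or for the difference between phases. Under the alternatives some of the genes named from these lists were called, in 12 of 76 values in anagen, 3 of 84 in early telogen and 3 of 105 for the difference. Of the proteases and other genes that release ligands, 2 of 11 tested fell and none rose in WT from anagen to early telogen, Adam10 (which sheds betacellulin and EGF) by 0.56 ± 0.16 on the log2 scale and Frmd8 (a partner of iRhom) by 0.65 ± 0.17. In KO, Frmd8 fell by 1.12 ± 0.24 and Timp3, an inhibitor of ADAM17, fell by 2.42 ± 0.33, again 2 of 11. Of 20 genes of receptor turnover and damping, 8 rose and 1 fell in WT, and 4 rose and 3 fell in KO. Lrig1, which marks receptors for degradation, fell by 1.60 ± 0.29 in WT (adjusted p = 0.00522 in edgeR) and by 2.20 ± 0.23 in KO (adjusted p = 0.000145 in edgeR). Sh3kbp1, an adaptor of CBL in receptor uptake, rose by 1.92 ± 0.24 in WT and by 2.69 ± 0.41 in KO.

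Of 18 ERK feedback and output genes, 3 rose and 4 fell in WT, and none rose and 9 fell in KO, with list medians of -0.34 and -0.78 on the log2 scale. Egr2, an immediate early transcription factor, fell by 0.97 ± 0.20 in WT and by 1.38 ± 0.24 in KO. In WT, Egr3 rose by 0.62 ± 0.16 and Myc rose by 0.81 ± 0.21. Etv4, an ETS factor downstream of ERK, fell by 2.64 ± 0.63 in WT and fell by 2.62 ± 0.34 in KO. In KO, Dusp4 fell by 2.61 ± 0.34 and Dusp6 fell by 1.31 ± 0.23, both phosphatases that switch off ERK. Of 21 adaptors and RAS-ERK cascade genes 5 rose and 2 fell in WT and 3 fell in KO, among them Rasa1, which turns RAS off and fell by 0.92 ± 0.21. Of 18 PI3K, PLCG and STAT branch genes, 7 were not analysed here in early telogen. Of the 11 that were, 4 rose and 1 fell in WT and 1 rose and 1 fell in KO. The share of genes called in these lists is to be read beside the 29.5% and 22.2% of all genes.

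Among all genes, those whose centred log2 CPM stayed nearest to the most variable members over the 12 libraries were listed by root mean square difference. For Areg the nearest were H2-Q10 (0.60), Epgn (0.62) and 2700094K13Rik (0.62), and Epgn lies in the same ligand cluster, on the far side of Ereg. For Ereg they were Serpina12 (0.56), Skint5 (0.59) and Skint6 (0.65), and for Btc Fbxl8 (0.9998), Rfxank (1.08) and Fhl1 (1.09). These values share the libraries and the stage split and were given no test.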

How the data were processed

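Poly(A) RNA of sorted cells was sequenced, per the labels with a directional library kit. The authors deposited 1 table of raw gene counts for each stage, from reads aligned with TopHat2 to mm10 and counted with HTSeq, per the submitters' processing notes. The annotation, the strand option and versions are not given in the sources used here. The tables shared 37931 names, 872 were in the anagen table only, and in early telogen 3 broken lines were left out and 27 names had become dates. Tally lines were left out of totals. Tests used edgeR 4.0.16 in R 4.3.3 (TMM, filterByExpr with minimum count 10 and total 15, robust quasi-likelihood F-test, Benjamini-Hochberg over all genes tested), with a call at an adjusted p under 0.05. SE is the log2 fold change over the square root of F. Alternatives were DESeq2 1.42.0, RLE normalization, no filter, all 12 libraries in 1 fit, sex as covariate, blocks, and leaving out each library. Sex and blocks were run only for KO against WT within a phase. All 10 members are named, and of each pathway list up to 4 called genes of smallest p per comparison, otherwise the 1 of smallest p. The most alike genes were those of smallest root mean square difference, with at least 5 CPM in 1 group. The members and lists were chosen with earlier results of these data known. Promoters came from RefSeq sequences (GRCm38.p6) and exonic lengths from GENCODE M21. The AP-1 motif was first searched with any base at its centre and was narrowed to the letters given here after that search had been run. The reason was how the motif could be printed, and neither form matched a member promoter. Some genes that the naming rule covers are not reported here.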

Additional observations from a re-analysis of the deposited data

How the results depend on the processing

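The Areg fall in both genotypes and the Ereg and Tgfa rises in KO between phases kept their direction and call in every alternative run on them, while the early telogen Tgfa call was lost in 10 of 14. No comparison between phases was run with sex as covariate. Genes called in anagen were 499 with DESeq2, 306 with no filter, 154 in the fit of all 12 libraries, 1 with sex as covariate and 253 with the day of the title as replicate block. Leaving out 1 library gave 0 to 95. Members called in anagen were 1 with DESeq2. In early telogen, genes called were 399 with DESeq2, 338 with no filter, 39 in the fit of all 12 libraries, 11 with a replicate block, 47 without KO replicate 2 and WT replicate 3 (chosen after seeing the data), and 19 to 131 when 1 library was left out. Members called there were 3 with DESeq2, 3 with no filter, 0 with RLE, with all 12 libraries, with the replicate block and without the pair, and 0 to 1 when 1 library was left out. The day block in anagen and the replicate block in early telogen each left 1 residual degree of freedom. A library alone in its block adds nothing to the KO difference. These were anagen WT replicate 2 and early telogen KO replicates 2 and 5 and WT replicate 4.

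Between phases, leaving out 1 library gave 2312 to 3329 genes and 1 to 3 members called in WT, and 1382 to 3640 genes in KO. For the difference of the KO effect, DESeq2 called 148 genes, no filter gave 409 genes and 4 members, and leaving out 1 library gave 0 to 55 genes.

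Some uncalled differences changed sign, Btc from values as large as -1.51 for the difference of the KO effect, -1.15 in early telogen and -0.69 between phases in KO. In anagen the sex covariate gave -0.33 and the day block -0.13 for Egfr, and the day block gave -0.14 for Btc. In early telogen the replicate block gave 0.39 for Ereg and 0.38 for Btc. No filter gave -0.0002 for Hbegf and -0.0050 for Erbb3 between phases in WT. Leaving out 1 library gave, in anagen, -0.32 to 0.31 for Areg, -1.10 to 0.16 for Tgfa, -1.34 to 1.10 for Btc, -0.38 to 0.42 for Epgn, -0.15 to 0.24 for Egfr, -0.17 to 0.42 for Erbb3 and -0.49 to 0.30 for Errfi1. It gave, in early telogen, -0.74 to 1.19 for Ereg and -0.31 to 0.0516 for Erbb2. Between phases it gave -0.33 to 0.29 for Hbegf and -0.19 to 0.21 for Erbb3 in WT, and -1.51 to 0.93 for Btc and -0.25 to 0.30 for Egfr in KO. For the difference of the KO effect it gave -2.31 to 0.16 for Btc and -0.23 to 0.13 for Erbb2. The cause was not tested in any of these.

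Replicate numbers 1 and 3 are shared between the early telogen groups, and these libraries are all labelled female. Deviations of same-numbered libraries correlated by 0.125 and 0.0661. These values have no reference to be read against, and the labels do not state a pairing, so whether these libraries are paired is not known. Groups of 2 to 4 libraries limit the precision.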

Other observations

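Summed over the 6 ligand genes, CPM was 805 and 969 in anagen KO, 1206, 824.5 and 889 in anagen WT, 605, 703, 533 and 581 in early telogen KO (replicates 1, 2, 3 and 5), and 594, 917 and 664.5 in early telogen WT (replicates 1, 3 and 4). Anagen and early telogen KO libraries did not overlap in this sum, and WT replicate 3 of early telogen lay above 2 of the 3 anagen WT libraries.

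Matched by the day in the title, Ereg was 0.132 of the WT level in KO at day 29 and 0.660 at day 31. Errfi1 was 0.582 of WT at day 29 and 1.44 times WT at day 31, and Epgn 0.569 and 1.41. The day 31 WT library is the one with an age label of 43 days.

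Nrg1, a ligand of ERBB3, was at 241 ± 251 CPM in anagen KO (SD, n = 2), 51.9 ± 43.0 in anagen WT (n = 3), 43.1 ± 22.9 in early telogen KO (n = 4) and 19.3 ± 2.92 in early telogen WT (n = 3), and no comparison called it. Erbb4 was at 0 in every early telogen WT library, where 3 counts would be 0.268 to 0.489 CPM. Timp3 was at 1789 ± 110.0 CPM in anagen KO and 582 ± 317 in anagen WT, without overlap and without a call (adjusted p = 0.385 in edgeR).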
